A study of Mus musculus with 16 samples.

Results

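Male Il10-/- mice (B6.129P2-IL10<tm1Cgn>/J), which lack the anti-inflammatory cytokine interleukin 10, were fed a diet holding 3.7% eicosapentaenoic acid (EPA, an n-3 fatty acid) or 3.7% arachidonic acid (AA, an n-6 fatty acid), and colon RNA was compared between these diets. The EPA group and the AA group had 2 arrays each, so that 4 of the 16 arrays of the study are the members, chosen by the genotype and diet in the sample titles and by no measured value. Each array held a pool of colon RNA from 2 to 3 of the 6 mice of a group. Whether both pools of a group came from separate mice is not stated. The p-values therefore measure the spread between arrays of the same group, taken over all 8 groups of the study. That spread may be technical. Both diets were fat-free AIN-76A, a purified rodent diet, with 1% corn oil added, contained 5% fat and were fed for 6 weeks. The other Il10-/- groups received 3.7% oleic acid in the same base (OA) or AIN-76A itself (CO), and C57BL/6J males, the strain used as control, received the same 4 diets. Mice of every group, the C57BL/6J groups included, had been given Enterococcus strains and complex intestinal flora by mouth and received an amount of food set by what Il10-/- mice ate. They were sampled after 77 days of age. The colon was analysed as whole tissue, so fewer cells of a type and less RNA per cell cannot be told apart in any value below. One OA array of Il10-/- mice, pool 1, is named as OA in its title and as EPA in its source name. It was kept with OA by its title and is in neither group compared here.

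EPA and AA are released from membrane phospholipids by phospholipases and compete for the same enzymes. The cyclooxygenases, of which Ptgs2 (COX-2) is the inducible one, turn AA into prostaglandins and thromboxanes, and the lipoxygenases, with Alox5 at their head, turn it into leukotrienes, which draw neutrophils into tissue. EPA gives related products that in many assays act more weakly on the same receptors, and both acids bind the nuclear receptors of the PPAR family, which raise transcription of fatty acid oxidation genes. In Il10-/- mice the response of T cells and macrophages to gut bacteria is not held back by interleukin 10, and the colon becomes inflamed.

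Every array compared a pool, labelled with Cy3, with 1 reference RNA of mouse small intestine, colon, kidney, liver and fetuses, labelled with Cy5. A level is the deposited log2 ratio of a pool to that reference, so 1 unit is a doubling if the base is 2, which is assumed and not stated, as are the folds below, and a level says nothing on how one gene compares with another. The 4 arrays gave 36276 to 38296 measured features each, after features at the value that most features of an array share (592 to 807 of them) were set to unmeasured. Genes of the reference tissues, such as kidney and liver genes, averaged -2.27 and -2.57 on the EPA arrays and -2.24 and -2.44 on the AA arrays over 10 genes. Colonocyte markers averaged 0.59 and 0.39 on EPA against 0.34 and 0.40 on AA over 18 genes, so the markers of the labelled tissue stood above a reference that holds colon RNA itself. The probe for Il10 read 0.62 and 0.45 on EPA against 0.50 and 0.38 on AA. Where that probe lies relative to the deleted part of the gene is not known, so it checks nothing. The EPA arrays were less alike than the AA arrays. The SD over 21637 genes of the difference between arrays was 0.235 for EPA pool 1 against EPA pool 2 and 0.158 for AA pool 1 against AA pool 2. EPA pool 2 differed from AA pool 1 by an SD of 0.153 and from AA pool 2 by 0.172, both under its own distance from EPA pool 1, while EPA pool 1 stood 0.222 and 0.244 from the AA arrays. EPA pool 1 is thus the array apart, and list medians that move by much or change sign without it, or without another of the 4 arrays, are given that way below.

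**Figure D1:**
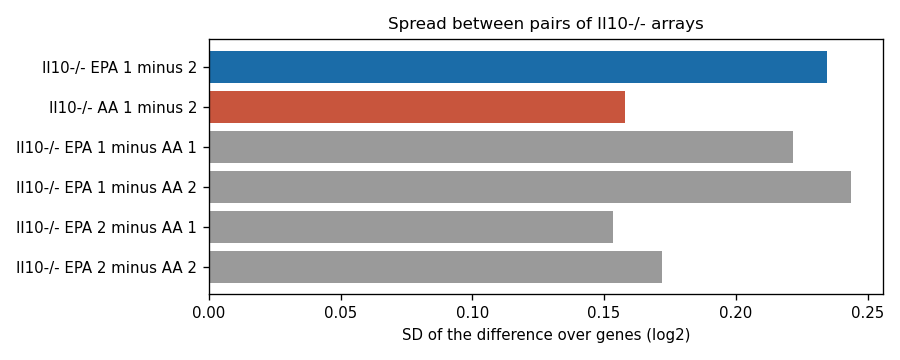
Bars give the SD over genes of the log2 difference between pairs of Il10-/- arrays, on an axis from 0: the EPA pair, the AA pair and the 4 EPA and AA pairings. EPA pool 2 lies as close to the AA arrays (0.153 and 0.172) as these lie to each other (0.158), and EPA pool 1 lies farther from all of them (0.222 to 0.244).

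The question of the comparison is how the colon of Il10-/- mice differs between an n-3 and an n-6 fatty acid fed at the same level. No gene passed the test. limma, fitted to all 16 arrays, called 0 of 23079 genes and unnamed features (0.0%) at a Benjamini-Hochberg adjusted p under 0.05, and the smallest adjusted p was 0.128. At an unadjusted p under 0.05 there were 705 (3.05%), 399 higher on EPA (1.73%) and 306 lower (1.33%), where 1153.95 would be expected if no gene differed. The error of this fit is shared by all 8 groups. The SD between the arrays of a group ran from 0.158 for Il10-/- AA to 0.371 for C57BL/6J CO. With only the Il10-/- arrays in the limma fit, 1323 had an unadjusted p under 0.05, so these counts depend on the arrays that set the error. Both EPA arrays lay above both AA arrays for 18.5% of genes and features and below both for 15.9%. If the 4 arrays were exchangeable, a share of 0.333 would separate in one direction or the other. Across 21637 genes EPA pool 1 minus AA pool 1 had a Pearson correlation of 0.0385 with EPA pool 2 minus AA pool 2 (51.8% with the same sign). For EPA pool 1 minus AA pool 2 with EPA pool 2 minus AA pool 1 it was -0.0149 (49.7%). The median difference over all genes and features was 0.0097 and 53.3% were above 0. The median standard error (SE) of a difference was 0.123 and the median half-width of its 95% interval was 0.269. At that SE a difference of 1.04 would have been needed for the top gene of the ranking to be called, and 6 named genes, S100a8, S100a9, Il1b, an immunoglobulin kappa variable segment, Mmp13 and Cxcl3, had a larger difference than 1. With 2 arrays against 2 an exact permutation test of a single gene cannot go below p = 0.333 (two-sided), so none was used. All values that follow are therefore descriptions of these 4 arrays, with the SE and unadjusted p of the fit across all genes.

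The 20 genes named by the rule, 10 higher and 10 lower on EPA in every pairing of arrays with the smallest p-values, divide by function as follows. On the higher side stood Camp and S100a8, antimicrobial proteins of neutrophils, the cytokine Il1a, the chemokines Cxcl2, Cxcl3 and Ccl4, Ptgs2, the collagenase Mmp13, Piwil1, a germline small RNA protein, and an immunoglobulin kappa variable segment. On the lower side stood Gzmc, a granzyme, Cd7, a surface protein of T and NK cells, Folr2, a folate receptor of macrophages, Lum, a collagen-binding proteoglycan, Pfn2, an actin-binding protein, C8g, a complement subunit, Pask, a PAS domain kinase, Aasdh, Tspan6, a tetraspanin, and E330013P04Rik. Differences ranged between 0.35 and 1.73 for the higher genes and between -0.74 and -0.25 for the lower ones. Levels of the immunoglobulin segment were 1.58 and 1.71 on EPA against 0.56 and 0.54 on AA, a difference of 1.09 ± 0.14 (SE, limma adjusted p = 0.128). It is one of many closely related segments whose transcripts can bind the same probe, so its identity is uncertain. Ptgs2, Il1a, Camp and S100a8 each had an adjusted p of 0.552 in the limma fit and Cxcl2 one of 0.837.

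Where the arrays of the other diets lay separates these genes further. Both AA arrays were below the other 6 Il10-/- arrays for 9 of the 10 higher genes, Camp excepted, and above the other 6 for all 10 lower genes. Over all genes these shares were 7.0% and 6.13%. Both EPA arrays were above the other 6 arrays for 5 of the higher genes, the immunoglobulin segment, Camp, Ccl4, Piwil1 and Cxcl3, and below the other 6 for 5 of the lower ones, against 3.87% and 2.87% of all genes. These placements use the AA and EPA arrays by which the 20 genes were chosen, so they say where OA and CO lay and support nothing further.

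**Figure D2:**
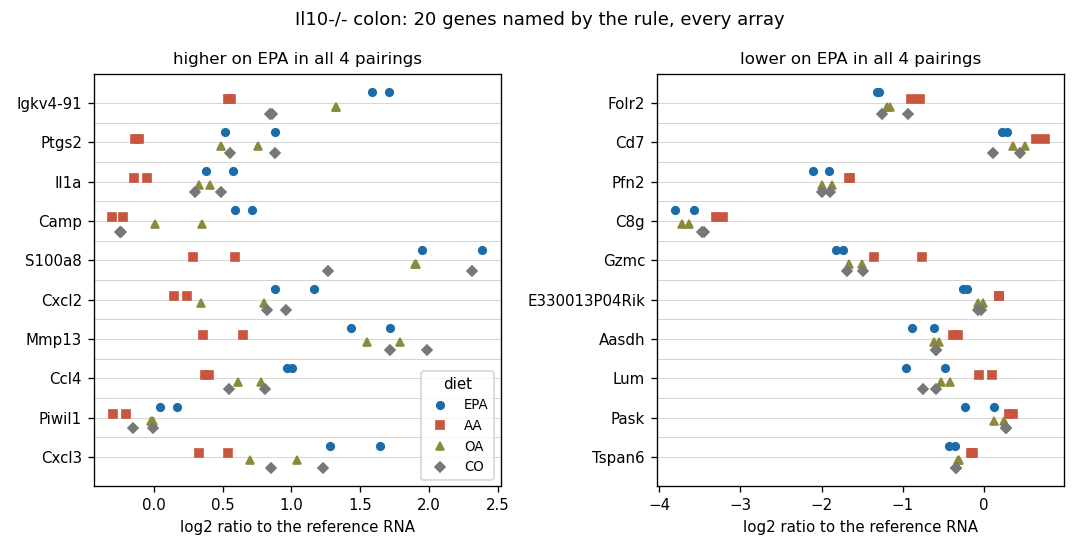
Points give the log2 ratio to the reference RNA of the 20 genes on each of the 8 Il10-/- arrays, with EPA as circles, AA as squares, OA as triangles and CO as diamonds. In the left panel the AA squares stand left of all other arrays for every gene but Camp, and in the right panel they stand right of all others for all 10 genes.

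Neutrophil markers made up the list with the highest median. S100a8 and S100a9 encode the subunits of calprotectin, the protein measured in stool as a sign of gut inflammation. S100a8 levels were 1.95 and 2.38 on EPA against 0.59 and 0.29 on AA. Both EPA arrays stood far above both AA arrays, by 1.73 ± 0.31 (SE) or 3.31-fold, with a 95% interval of 1.05 to 2.40 (unadjusted p = 0.00012). On OA it read 1.90 and 1.89 and on CO 1.27 and 2.31, so the AA arrays were the low ones of the 8. S100a9 read 2.85 and 2.94 on EPA against 1.30 and 1.08 on AA, a difference of 1.71 ± 0.42. Its AA arrays also lay under OA (2.26 and 2.83) and CO (2.08 and 2.87). Camp, which encodes the antimicrobial peptide cathelicidin, read 0.59 and 0.71 on EPA against -0.30 and -0.22 on AA, a difference of 0.91 ± 0.16. Here the EPA arrays were the high ones, since OA read 0.35 and 0.01 and both CO arrays -0.24. Mpo, the myeloperoxidase of neutrophil granules, followed Camp rather than S100a8, with 0.34 and 0.13 on EPA, -0.13 and -0.16 on AA, and -0.25 to -0.027 over the OA and CO arrays. Retnlg, a resistin-like protein of granulocytes, read 0.83 and 0.66 on EPA against 0.041 and -0.0048 on AA, and Ltf, the iron-binding lactoferrin, 0.72 and 0.60 on EPA against 0.39 and 0.14 on AA.

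Of the 18 neutrophil genes listed, 15 were tested, and 14 of these had a difference above 0. Both EPA arrays exceeded both AA arrays for 8 of the 15 (18.5% of all genes) and for none were they both below (15.9%). At an unadjusted p under 0.05, 8 were higher and 0 lower, beside 1.73% and 1.33% of all genes. The median difference was 0.30, against 0.0097 over all genes. The mean level over the 12 markers measured on all 16 arrays was 0.74 and 0.75 on EPA, 0.29 and 0.25 on AA, 0.79 and 0.77 on OA and 0.55 and 0.85 on CO. Without EPA pool 1 the median was 0.25 with 12 of 15 above 0, without EPA pool 2 it was 0.45, and without AA pool 1 and AA pool 2 it was 0.15 and 0.36. Surface receptors of the list differed little. Csf3r, the receptor for the growth factor of neutrophils, read 0.30 and 0.20 on EPA against 0.24 and 0.21 on AA, both below OA (0.73 and 0.79) and CO (0.69 and 0.94). The formyl peptide receptor Fpr2 differed by -0.10 ± 0.18 and the lectin receptor Clec4d by 0.11 ± 0.21.

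Antimicrobial proteins shared with the epithelium differed less evenly. Slpi, a protease inhibitor of mucosal surfaces, read 1.52 and 1.75 on EPA against 0.79 and 0.65 on AA, a difference of 0.92 ± 0.23. Lcn2, the iron scavenger lipocalin 2, read 1.76 and 1.19 on EPA against 1.03 and 0.48 on AA, a difference of 0.72 ± 0.26 (95% interval 0.15 to 1.30). For both genes the EPA arrays stood above the AA arrays. The list of antimicrobial and acute phase genes had 11 of 21 tested above 0 and a median of 0.053, which was -0.0036 without EPA pool 1, -0.071 without EPA pool 2, 0.0099 without AA pool 1 and 0.025 without AA pool 2. The neutrophil marker levels above stand beside each of these genes, and the part that neutrophil number had in them was not tested.

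Among cytokines the interleukin 1 genes had the largest differences. Il1b, the main secreted interleukin 1 of myeloid cells, read 3.03 and 3.31 on EPA, 2.07 and 1.84 on AA, 3.23 and 3.39 on OA and 2.94 and 3.91 on CO. AA was again the low diet, and the EPA minus AA difference was 1.22 ± 0.34 (2.32-fold, 95% interval 0.47 to 1.96). Il1a, the form that epithelial cells also hold, read 0.57 and 0.38 on EPA against -0.14 and -0.05 on AA, a difference of 0.57 ± 0.097 (unadjusted p = 7.55e-05). The 2 probes for Il1a gave 0.39 and 0.75. Tnf, an inflammatory cytokine of macrophages and T cells, read 1.36 and 1.52 on EPA against 1.25 and 0.99 on AA, a difference of 0.33 ± 0.13, which is small beside the 1.72 by which it differed between genotypes on CO and OA. Il18, an interleukin 1 relative made by epithelium, read -0.22 and -0.35 on EPA against -0.59 and -0.67 on AA, with OA and CO lower still (-1.03 to -0.80). Il4, a cytokine of helper T cells and mast cells, differed by 0.29 ± 0.12 at levels near those of the reference. Of 21 cytokine genes tested 16 had a difference above 0, with a median of 0.095, and 9 had both EPA arrays above both AA arrays (18.5% of all genes) and 4 both below (15.9%). The median was 0.024 without EPA pool 1 and 0.032 without AA pool 2, and 0.18 without EPA pool 2.

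Of 28 chemokines tested, 6 had both EPA arrays above both AA arrays (18.5% of all genes) and 5 both below (15.9%). Those above included Cxcl2, Cxcl3, Cxcl1 and Ccl4, and those below were Ccl5, Ccl9, Ccl20, Ccl24 and Ccl25. Cxcl2 and Cxcl3 bind the receptor that draws neutrophils. Cxcl2 read 1.16 and 0.88 on EPA against 0.15 and 0.24 on AA, a difference of 0.83 ± 0.16. Cxcl3 read 1.65 and 1.28 on EPA against 0.54 and 0.33 on AA, a difference of 1.03 ± 0.22, above OA (1.04 and 0.70) and CO (0.85 and 1.23). Ccl4, which draws monocytes and T cells, read 1.00 and 0.97 on EPA against 0.37 and 0.40 on AA, a difference of 0.60. Its neighbour in function Ccl3 read 1.24 and 0.26 on EPA, on either side of the AA arrays (0.37 and 0.47). Cxcl1, another ligand of the same neutrophil receptor, read 0.71 and 0.63 on EPA against 0.33 and 0.41 on AA, a difference of 0.30 ± 0.23. Ccl5, made by T and NK cells, lay the other way, with 0.89 and 0.84 on EPA against 1.08 and 1.31 on AA. The largest difference below 0 was that of Ccl25, a chemokine of gut-homing T cells, at -0.70 ± 0.65, with -2.30 and -2.44 on EPA against -1.97 and -1.35 on AA. Ccl20 differed by -0.34 ± 0.37, Ccl9 by -0.14 ± 0.093 and Ccl24 by -0.14 ± 0.11. Over the whole list 11 of 28 were above 0 and the median was -0.023. It was 0.069 without EPA pool 1 and 0.086 without AA pool 1, against -0.083 without EPA pool 2 and -0.10 without AA pool 2, so its sign was set by the array left out.

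The upstream sequences of Cxcl2 and Cxcl3 are shown because both differed in the same direction and their genes lie near each other on chromosome 5. Both are the last 120 bases before the transcription start, from RefSeq, build GRCm38.p6. Capitals mark matches to GGGANNNNCC, a short form of the motif bound by NF-kappa B, searched on both strands; 2 overlapping matches form each run of capitals. The run is the same in both genes.
Cxcl2, chr5:90903779-90903898, plus strand: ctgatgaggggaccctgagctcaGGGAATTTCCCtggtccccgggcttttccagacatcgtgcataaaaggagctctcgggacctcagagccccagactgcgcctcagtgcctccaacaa
Cxcl3, chr5:90785981-90786100, plus strand: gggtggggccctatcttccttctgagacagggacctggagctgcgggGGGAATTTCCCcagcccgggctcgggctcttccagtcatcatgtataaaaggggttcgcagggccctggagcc
Of 32851 RefSeq windows of this length, 9.83% held a match. Among the 10 higher genes 8 had a window and 2 held a match, Cxcl2 and Cxcl3, and among the 10 lower genes 8 had a window and 0 held one. A match is a run of letters and not evidence of binding.

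Among enzymes that act on the dietary fatty acids themselves, Ptgs2 stood apart from the rest. Ptgs2 read 0.88 and 0.52 on EPA, -0.11 and -0.14 on AA, 0.76 and 0.49 on OA and 0.55 and 0.88 on CO. The AA arrays were the low ones, EPA lay close to OA and CO, and EPA minus AA was 0.82 ± 0.14 (1.77-fold, 95% interval 0.53 to 1.12, unadjusted p = 5.5e-05, limma adjusted p = 0.552). Its 2 probes gave nearly the same difference, 0.82 each. Ptgs1, the constitutive cyclooxygenase, was not tested here. Cbr1, a carbonyl reductase that also converts prostaglandin E2, read 0.21 and 0.15 on EPA, -0.55 and -0.22 on AA, and -0.99 to -0.44 over the OA and CO arrays, so EPA was the high diet. Alox5ap, the protein that hands AA to Alox5, read 0.76 and 0.88 on EPA against 0.63 and 0.60 on AA, a difference of 0.21 ± 0.11. Alox5 itself read 0.015 and -0.056 on EPA against -0.0022 and -0.029 on AA, with an unadjusted 95% interval of -0.19 to 0.18. Alox15, a lipoxygenase that acts on both acids, differed by 0.15 ± 0.12, and the prostaglandin-clearing Hpgd by 0.12 ± 0.27, with EPA arrays at 0.96 and 0.26 and AA arrays at 0.24 and 0.73 in overlapping ranges. The secreted phospholipase Pla2g5 read 1.88 and 1.87 on EPA against 1.79 and 1.09 on AA. The co-chaperone and prostaglandin synthase Ptges3 read 0.015 and 0.039 on EPA against -0.11 and -0.36 on AA. The cytochrome Cyp2c55 had the largest difference of the list, 0.87 ± 0.50, with EPA arrays at 1.63 and 0.90 and AA arrays at -0.25 and 1.04, which overlap. Of 38 eicosanoid enzymes tested 23 had a difference above 0, with a median of 0.057, and 10 had both EPA arrays above both AA arrays (18.5% of all genes) and 5 both below (15.9%). Without EPA pool 1 that median was 0.0025, and without EPA pool 2 it was 0.12. Receptors for eicosanoids and fatty acids differed little: the largest difference above 0 among 16 tested was that of Ptger4, a prostaglandin E2 receptor, at 0.26 ± 0.23, and Ffar4, a receptor for long-chain fatty acids, read 1.33 and 1.39 on EPA against 1.34 and 1.24 on AA.

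The upstream window of Ptgs2 (RefSeq, GRCm38.p6, last 120 bases before the start) is shown because Ptgs2 is the enzyme of the list that differed most for its error. Capitals mark its match to TTGCNNAA, a motif bound by C/EBP factors, which 4.15% of all windows held on one strand or the other.
Ptgs2, chr1:150099911-150100030, plus strand: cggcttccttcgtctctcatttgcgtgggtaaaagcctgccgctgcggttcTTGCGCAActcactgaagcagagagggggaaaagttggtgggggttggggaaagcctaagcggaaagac

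Some metalloproteinases, enzymes that degrade matrix in inflamed mucosa, had their lowest levels on AA, and both AA arrays were below the other 6 for 5 of the 18 matrix remodelling genes tested (7.0% of all genes). Mmp13, a collagenase, read 1.43 and 1.71 on EPA against 0.65 and 0.36 on AA, a difference of 1.07 ± 0.25 (2.10-fold, 95% interval 0.52 to 1.61). OA stood at 1.79 and 1.55 and CO at 1.72 and 1.99, so AA was the low diet. Mmp3, the stromelysin that activates other metalloproteinases, read 2.36 and 2.45 on EPA against 1.61 and 1.32 on AA, a difference of 0.94 ± 0.23. Mmp10, a second stromelysin, read 1.14 and 1.85 on EPA against 0.78 and 0.45 on AA, a difference of 0.88 ± 0.36, with the EPA arrays far from each other. Plaur, the receptor of urokinase on myeloid cells, read 0.97 and 0.95 on EPA against 0.69 and 0.36 on AA. For these 4 genes every AA array was below every other Il10-/- array. Mmp9, the gelatinase of neutrophil granules, differed by 0.23 ± 0.11. Over the 18 genes of matrix remodelling that were tested, 13 were above 0, 6 had both EPA arrays above both AA arrays (18.5% of all genes) and 2 both below (15.9%), and the median was 0.092. The median was -5.0e-05 without AA pool 2 and 0.15 without AA pool 1, so over the whole list it rests on AA pool 2.

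The windows of Mmp13, Mmp3 and Mmp10, which lie in 1 cluster on chromosome 9, and of Il1a are shown because each held a match to TGANTCA, the core motif of AP-1 factors, in capitals (RefSeq, GRCm38.p6, last 120 bases before the start, both strands searched).
Mmp13, chr9:7272394-7272513, plus strand: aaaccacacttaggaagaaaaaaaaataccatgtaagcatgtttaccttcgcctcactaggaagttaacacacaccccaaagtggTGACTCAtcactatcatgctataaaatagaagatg
Mmp3, chr9:7445702-7445821, plus strand: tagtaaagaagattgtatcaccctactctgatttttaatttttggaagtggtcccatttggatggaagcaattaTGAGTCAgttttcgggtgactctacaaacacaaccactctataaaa
Mmp10, chr9:7502222-7502341, plus strand: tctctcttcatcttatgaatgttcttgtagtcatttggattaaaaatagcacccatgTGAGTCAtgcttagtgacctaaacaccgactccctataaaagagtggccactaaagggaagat
Il1a, chr2:129309973-129310092, minus strand: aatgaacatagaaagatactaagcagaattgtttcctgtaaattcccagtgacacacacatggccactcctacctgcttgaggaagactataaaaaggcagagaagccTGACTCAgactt
Of all windows 3.41% held such a match, and of 12 inflammatory genes described above (S100a8, S100a9, Camp, Il1a, Il1b, Ptgs2, Cxcl2, Cxcl3, Ccl4, Mmp3, Mmp10 and Mmp13) 11 had a window and these 4 held one. That set was put together with its values known, so the count is a description. Among the 10 higher genes 8 had a window and 2 held a match, Il1a and Mmp13. Among the 10 lower genes 8 had a window and 1 held a match, Folr2. Immediate early genes, among them subunits of AP-1, had 14 of 16 tested above 0, with a median of 0.13, and 8 had both EPA arrays above both AA arrays, beside 18.5% of all genes. Fosl1, one such subunit, read -0.01 and -0.12 on EPA against -0.22 and -0.35 on AA. Whether these levels have any link to the genes that held a match was not tested.

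**Figure D3:**
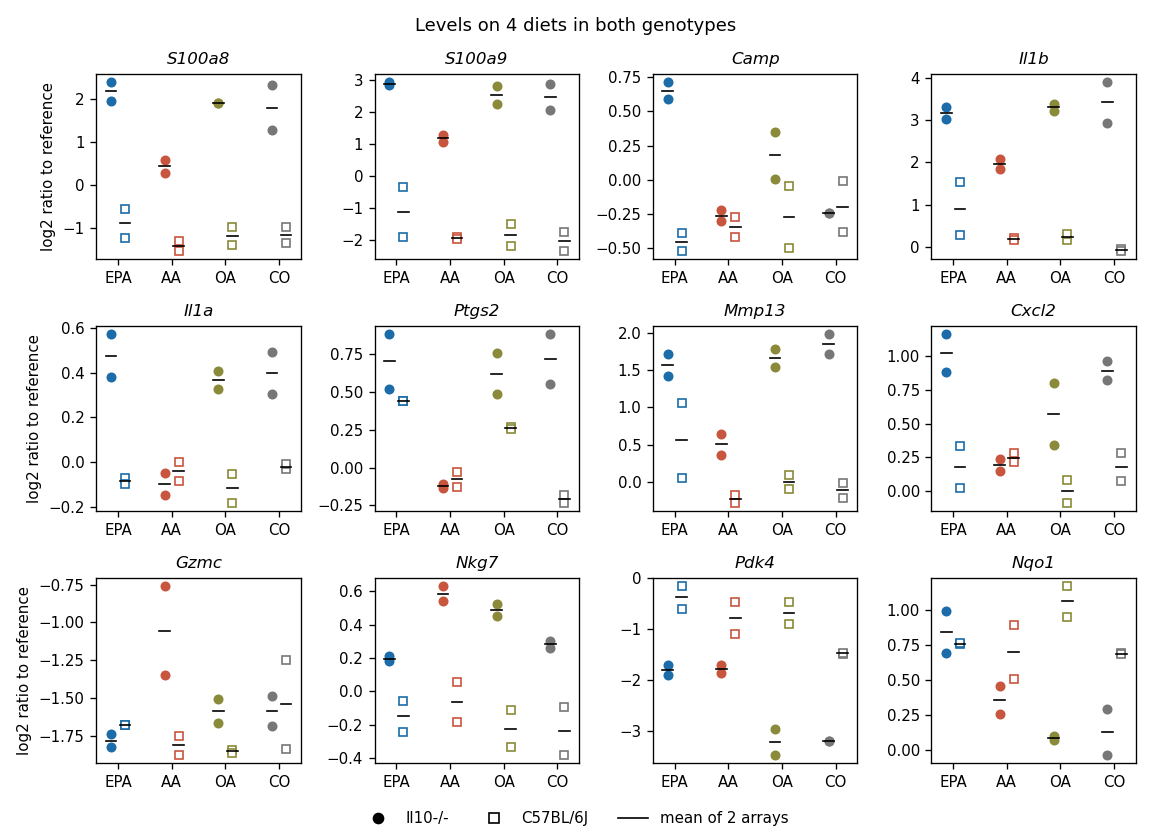
Points give the log2 ratio to the reference RNA on each array for 12 genes on EPA, AA, OA and CO, filled for Il10-/- and open for C57BL/6J, and black lines the mean of 2 arrays. In Il10-/- colon AA is the low diet for S100a8, S100a9, Il1b, Il1a, Ptgs2, Mmp13 and Cxcl2, EPA is the high diet for Camp and Nqo1, AA is the high diet for Gzmc and Nkg7, and EPA and AA lie together above OA and CO for Pdk4.

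Genes of cytotoxic lymphocytes ran the other way. Gzmc, a granzyme of activated killer cells, read -1.82 and -1.74 on EPA against -1.35 and -0.76 on AA, a difference of -0.73 ± 0.19 (0.604-fold, 95% interval -1.15 to -0.31). OA (-1.50 and -1.67) and CO (-1.68 and -1.49) lay between EPA and AA. Nkg7, a granule protein of NK and CD8 T cells, read 0.18 and 0.21 on EPA against 0.63 and 0.54 on AA, a difference of -0.39 ± 0.12. Gzma, another granzyme, read 0.12 and 0.52 on EPA against 0.73 and 0.90 on AA, and Prf1, the pore-forming perforin, -0.20 and -0.13 on EPA against 0.20 and 0.03 on AA. Klrd1, a chain of NK cell receptors, read 0.81 and 0.77 on EPA against 0.97 and 1.13 on AA. For each of these 5 genes the EPA arrays were below the AA arrays. Of 12 cytotoxic markers tested 11 had a difference below 0. The exception was Ncr1, an activating receptor of NK cells, at 0.30 ± 0.15. Both EPA arrays were below both AA arrays for 6 markers (15.9% of all genes) and above both for 1 (18.5%). At an unadjusted p under 0.05, 5 were lower and 0 higher, beside 1.33% and 1.73% of all genes. The median was -0.17 and stayed between -0.23 and -0.14 when any of the 4 arrays was left out. The mean level over 11 of these markers was -0.081 and -0.00050 on EPA, 0.18 and 0.25 on AA, -0.01 and 0.07 on OA and 0.06 and -0.03 on CO.

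General T cell genes were less even. Cd8b1, a chain of the CD8 co-receptor, read 0.25 and 0.08 on EPA against 0.40 and 0.51 on AA, and Cd3d, a chain of the T cell receptor complex, 0.53 and 0.76 on EPA against 0.92 and 1.07 on AA. Cd7 read 0.22 and 0.29 on EPA against 0.65 and 0.76 on AA, and its AA arrays were above the other 6. Of 15 T cell markers 10 were below 0 with a median of -0.10, but without EPA pool 1 the median was -0.0024 with 7 of 15 above 0. Mast cell markers had 8 of 10 below 0 and a median of -0.11 (-0.068 without EPA pool 2), with the chymase Cma1 at -0.28 on both EPA arrays and at -0.09 and 0.10 on AA. B cell, plasma cell and macrophage lists had medians of -0.035, -0.061 and 0.069. Without EPA pool 1 the B cell median was 0.021, without AA pool 1 the plasma cell median was 0.022, and without EPA pool 2 the macrophage median was 0.0074.

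Interferon gamma response genes, of which 19 of 21 were called higher in Il10-/- than in C57BL/6J colon on CO and OA (9.48% of all genes) with a median of 1.92, showed no common direction between the diets. Ifng read 0.89 and 1.49 on EPA against 1.26 and 1.12 on AA, a difference of -0.0023 ± 0.16. Ubd, a ubiquitin-like protein induced by that cytokine, read 1.28 and 1.24 on EPA against 1.23 and 1.28 on AA, a difference of 0.0039 ± 0.245 (95% interval -0.53 to 0.54), although on CO and OA it was 2.92 higher in Il10-/- than in C57BL/6J colon. The chemokine Cxcl9 read 0.98 and 1.85 on EPA against 1.91 and 1.31 on AA, the tryptophan-degrading Ido1 0.98 and 1.65 on EPA against 2.02 and 1.02 on AA, and the nitric oxide synthase Nos2 1.22 and 0.63 on EPA against 0.88 and 0.44 on AA. For each of these the EPA arrays overlapped the AA arrays. Of 21 interferon gamma response genes 11 were above 0 and 10 below, and the median was 0.0039. Both EPA arrays were above both AA arrays for 1 gene (18.5% of all genes) and below both for 0 (15.9%). The mean level of the list was 0.65 and 1.03 on EPA against 1.07 and 0.61 on AA, so each diet held 1 array with a high and 1 with a low level. The median was 0.18 without EPA pool 1 and -0.20 without EPA pool 2, and for this list the direction is set by the array left out. All 9 genes of MHC class II presentation tested were above 0 with a median of 0.19. Both EPA arrays were above both AA arrays for 2 of them, near the 18.5% of all genes. Without AA pool 2 the median was 0.098 with 5 of 9 above 0, and without AA pool 1 it was 0.44. Of 22 type I interferon genes 18 were above 0 with a median of 0.13 (0.050 without AA pool 2 and 0.23 without AA pool 1), the largest being that of Oasl1, an oligoadenylate synthetase relative, at 0.50 and 0.14 on EPA against -0.033 and -0.25 on AA.

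Fatty acid oxidation genes, the textbook targets of PPAR alpha, were close on EPA and AA. Pdk4, the kinase that turns cells from glucose to fatty acid use, read -1.69 and -1.90 on EPA against -1.85 and -1.71 on AA, a difference of -0.019 ± 0.22 (95% interval -0.51 to 0.47). Both diets lay above OA (-3.45 and -2.96) and CO (-3.19 on both arrays), so for this gene the diets holding either acid sat together. Ppara itself read -1.05 and -1.42 on EPA against -1.51 and -1.05 on AA, and Pparg 1.32 and 1.45 on EPA against 1.10 and 1.25 on AA. Cpt1a, which admits fatty acids to mitochondria, read 0.46 and 0.016 on EPA against 0.042 and -0.0065 on AA, so EPA pool 1 stood out. Acaa1b, a peroxisomal thiolase, read -1.03 and -1.35 on EPA against -1.73 and -1.65 on AA, a difference of 0.50 ± 0.19. It was the only gene of the list with an unadjusted p under 0.05, beside 3.05% of all genes. Slc25a20, the acylcarnitine carrier, differed by 0.25 ± 0.13, the omega-hydroxylase Cyp4a10 by -0.038 ± 0.095, the lipase inhibitor Angptl4 by -0.15 ± 0.42 and the fatty acid transporter Cd36 by -0.50 ± 0.38. Of 48 genes of the list tested 27 were above 0, the median was 0.050 and it was -0.055 without EPA pool 1 and 0.13 without EPA pool 2.

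Genes that make unsaturated fatty acids differed little between the diets. The desaturases Fads1 and Fads2, which turn plant fatty acids into AA and EPA, differed by 0.031 ± 0.21 and 0.093 ± 0.13, and the elongase Elovl5 by 0.10 ± 0.18. Scd1, which makes oleic acid, read -0.91 and -1.33 on EPA against -1.16 and -0.74 on AA. Fasn, the fatty acid synthase, differed by 0.080 ± 0.22 on the feature that was measured, while another feature of the gene was at the shared value and was not used. Srebf1, the transcription factor that drives these genes, read -0.46 and -0.15 on EPA against -0.81 and -0.57 on AA, a difference of 0.39 ± 0.16. All 4 of these arrays lay below OA (0.073 and 0.061), and all but EPA pool 2 below CO (-0.015 and -0.21). Dgat2, the last enzyme of triglyceride synthesis, read 0.15 and -0.047 on EPA against -0.25 and -0.37 on AA. Over 27 lipogenesis genes the median was 0.031, and it was 0.0042 without EPA pool 1 and -0.0061 without AA pool 1. Over 19 cholesterol synthesis genes it was -0.051 with 12 below 0, and it was -0.011 without EPA pool 1.

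Several detoxification and glutathione genes had both EPA arrays above both AA arrays, for some of them mainly through EPA pool 1. Nqo1, a quinone reductase, read 0.99 and 0.69 on EPA against 0.25 and 0.46 on AA, a difference of 0.48 ± 0.15, and stood above OA and CO (-0.035 to 0.29). Abcc3, an exporter of conjugates and bile acids, read 0.96 and 0.97 on EPA against 0.57 and 0.60 on AA, also above OA and CO. Gclc, which sets the rate of glutathione synthesis, read -0.90 and -1.12 on EPA against -1.71 and -1.50 on AA, a difference of 0.59 ± 0.23. Gss, the second enzyme of that pathway, read 0.95 and 0.19 on EPA against 0.073 and -0.020 on AA, with most of the difference on EPA pool 1. Keap1, the inhibitor of the factor that drives these genes, read 0.37 and 0.22 on EPA against 0.073 and 0.063 on AA. Of 17 oxidative stress genes tested 15 were above 0, 8 had both EPA arrays above both AA arrays (18.5% of all genes) and 0 both below (15.9%), and the median was 0.16. Without EPA pool 1 the median was 0.067 with 10 of 17 above 0, and without EPA pool 2 it was 0.33. The mean level over those 17 genes was 0.03 and -0.33 on EPA against -0.33 and -0.35 on AA, so in the mean EPA pool 1 was the array that stood apart. Xenobiotic metabolism genes had 32 of 52 above 0. Both EPA arrays were above both AA arrays for 9 of the 52 (18.5% of all genes) and below both for 7 (15.9%), near the shares of all genes. The median of this list was 0.091. It was 0.012 without EPA pool 1 and -0.043 without AA pool 1, against 0.20 without EPA pool 2 and 0.19 without AA pool 2.

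Lists for the other tissue compartments had medians of 0.12 for colonocytes, -0.058 for goblet cells, 0.0015 for enteroendocrine cells, 0.097 for crypt base genes, 0.053 for proliferation, 0.027 for collagen and stroma, -0.0038 for smooth muscle, 0.055 for neurons and glia, -0.037 for endothelium and -0.076 for adipocytes. Several of these medians moved with 1 array. Colonocytes gave 0.041 without EPA pool 1 and 0.26 without EPA pool 2, and goblet cells 0.18 without EPA pool 2. Proliferation gave -0.071 without AA pool 2 and 0.15 without EPA pool 1. Enteroendocrine cells gave -0.069 without AA pool 1 and 0.063 without EPA pool 2. Collagen and stroma gave -0.040 without AA pool 2 and 0.066 without AA pool 1. Smooth muscle gave -0.063 without EPA pool 1 and 0.036 without AA pool 1. Crypt base genes gave 0.034 without AA pool 2. Of 15 adipocyte genes 13 were below 0, 6 with both EPA arrays below both AA arrays (15.9% of all genes) and 2 with both above (18.5%), and the median lay between -0.20 without EPA pool 2 and -0.030 without EPA pool 1. Lum read -0.96 and -0.48 on EPA against 0.10 and -0.058 on AA, against a stroma list centred near 0. Folr2 read -1.29 and -1.32 on EPA against -0.90 and -0.79 on AA, against a macrophage list centred near 0. Adipocyte genes, which mark fat attached to the colon, averaged -0.45 and -0.32 on EPA against -0.37 and -0.18 on AA in Il10-/- mice. The part of cell makeup in any of the differences above was not tested.

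**Figure D4:**
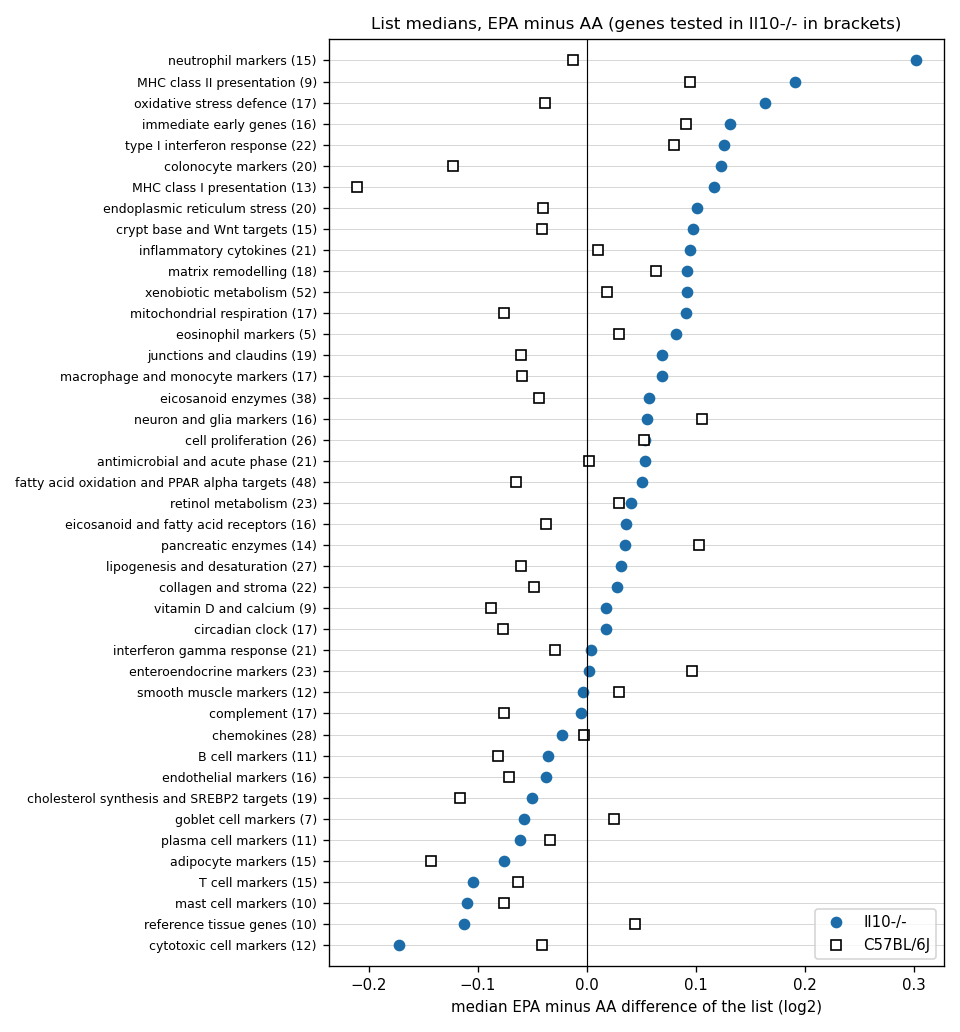
Points give the median EPA minus AA difference (log2) of the genes of each of 43 lists, filled for Il10-/- and open for C57BL/6J. In Il10-/- colon neutrophil markers have the highest median (0.30) and cytotoxic cell markers the lowest (-0.17), and in C57BL/6J colon these lists lie at -0.013 and -0.041.

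The same diets were compared in C57BL/6J colon, where limma called 0 of 22998 genes and features (0.0%) and 696 (3.03%) had an unadjusted p under 0.05. The test of whether EPA minus AA differed between genotypes also called 0 (0.0%), with a smallest adjusted p of 0.991 and 900 (3.91%) at an unadjusted p under 0.05. No gene was thus shown to differ in its diet difference between the genotypes. The interaction contains the Il10-/- values given above, so the 2 are not separate evidence. S100a8 in C57BL/6J colon read -1.23 and -0.55 on EPA against -1.51 and -1.28 on AA, and Il1b 0.27 and 1.53 on EPA against 0.21 and 0.16 on AA, where EPA pool 2 alone stood out. Ptgs2 read 0.44 on both EPA arrays and -0.030 and -0.13 on AA, so its groups did not overlap there either, and the difference of the differences was 0.31 (unadjusted p = 0.14). Camp read -0.39 and -0.52 on EPA against -0.27 and -0.42 on AA, a difference of -0.11, and the genotypes differed by 1.02 (unadjusted p = 0.00083). Il1a and Cxcl2 likewise had differences of -0.043 and -0.068 in C57BL/6J colon. Of the neutrophil markers 7 of 15 were above 0 in C57BL/6J colon with a median of -0.013, 3 had both EPA arrays above both AA arrays (11.4% of all genes there) and 2 both below (14.9%). Of the cytotoxic markers 5 of 12 were above 0 with a median of -0.041. Of the 10 higher genes 6 had both EPA arrays above both AA arrays in C57BL/6J colon (11.4% of all genes there) and 0 both below (14.9%). Of the 10 lower genes 1 was above and 1 below. Across 21637 genes the EPA minus AA difference in Il10-/- colon had a Pearson correlation of -0.172 with that in C57BL/6J colon. The sign was the same for 42.8% of these genes. Genes are not independent, so these values are a description.

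The last comparison set EPA minus AA beside the difference between Il10-/- and C57BL/6J colon on CO and OA, which shares no array with it. Mutation and any other difference between these groups of mice cannot be told apart in it. On those diets limma called 3966 of 23012 genes and features (17.2%), 2182 higher in Il10-/- colon (9.48%) and 1784 lower (7.75%), at an adjusted p under 0.05. Of the 10 genes named as higher on EPA, 8 were called by genotype and all 8 rose in Il10-/- colon. Among them were S100a8 by 3.01, Mmp13 by 1.82 and Ptgs2 by 0.64. Il1b rose by 3.29, S100a9 by 4.43 and Mmp3 by 2.59. Of the 10 genes named as lower on EPA, 4 were called by genotype, and 1 of these rose in Il10-/- colon while the others fell. Of the 2182 genes called higher, 54.6% had EPA minus AA above 0, close to the 53.3% of all genes, with a median of 0.015, and of the 1784 called lower 43.9%, with a median of -0.022. Of the 237 genes that rose by more than 1 in Il10-/- colon, 154 (65%) had EPA minus AA above 0, against 53.3% of all genes, and their median was 0.069. Both EPA arrays were above both AA arrays for 21.5% of the 237 and below for 7.17%, beside 18.5% and 15.9% of all genes. Of the 161 that fell by more than 1, 46% had EPA minus AA above 0 and the median was -0.014. Both EPA arrays were above both AA arrays for 9.94% of the 161 and below for 20.5%. Across 21637 genes the EPA minus AA difference and the genotype difference had a Pearson correlation of 0.11, given as a description over genes that share arrays within each difference and are not independent.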

How the data were processed

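The log2 ratios analysed are those of the deposited series matrix, 1 column per 2-colour Agilent array (Cy3 pool, Cy5 reference, per the labels). How the authors corrected background, normalized and set missing values is something the sources used here do not give, and limma is named without a version in the submitters' processing notes. The log base and the direction are not stated. Base 2 was assumed, and pool over reference was taken from the values, since genes of the other reference tissues averaged below 0 on every array. Of 44290 features, 32042 have 1 gene symbol in the platform annotation, 47 several and 12201 none, and 31906 were matched to current RefSeq symbols by gene ID with 0 changed. No 2 of the 16 arrays held identical values.

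On each array 326 to 985 features share 1 value (the next most shared value has 3 to 4) and were treated as unmeasured. Features measured on all 4 EPA and AA arrays of Il10-/- colon (32638) were kept, those of a symbol averaged as deviations from their mean over these arrays, and unnamed features kept singly, giving 16634 named genes and 6445 features. A linear model with a mean for each of the 8 groups, fitted to 16 arrays with lmFit and moderated with eBayes in limma 3.58.1 (R 4.3.3, 8 residual degrees of freedom), gave differences, SE and p, adjusted by Benjamini-Hochberg over all tests, with a call at 0.05. The fit was tested on simulated data with known differences. The number of arrays limits the precision.

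The genes named are the 10 higher and 10 lower genes with the smallest p among those whose EPA arrays both lay beyond both AA arrays, the up to 4 smallest p of each of 43 gene lists where described, and a set of fatty acid and inflammation genes always given. Ccl3, Ccl9, Ccl20, Ccl24, Ccl25, Clec4d, Csf3r, Cxcl1, Cyp2c55, Fpr2, Il4, Klrd1, Ltf, Mmp9, Ncr1 and Retnlg fall outside these rules and were chosen after their values were seen. The comparison, lists and rules were chosen with earlier results of these data known. Arrays with the same pool number did not deviate together in a common direction: over 28 pairs of groups the correlation was -0.395 to 0.409 (median 0.0804). For EPA with AA in Il10-/- mice it was 0.0548, so the numbers were not taken as pairs. Some pairs of groups were correlated: Il10-/- EPA gave 0.389 with C57BL/6J CO, 0.339 with Il10-/- OA and -0.395 with C57BL/6J AA. Alternatives were the shared value kept, single features, 2 other filters, quantile normalization, fewer arrays in the fit, array weights, a trended robust variance, the pool number as block, the doubtful OA array counted as EPA, and each array left out. Promoter windows are RefSeq's (GRCm38.p6). Tables and figures used Python 3.11.15, pandas 2.3.3, numpy 2.4.6, scipy 1.17.1 and matplotlib 3.10.9.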

Additional observations from a re-analysis of the deposited data

How the results depend on the processing

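No gene was called for EPA minus AA in Il10-/- colon under the main settings. Fitting only the arrays of that genotype called 1, the immunoglobulin kappa variable segment (limma adjusted p = 0.0109). Some fits without a single array also gave calls. Without either OA pool of C57BL/6J mice the call was the same segment. Without AA pool 1 or AA pool 2 of Il10-/- mice, 1 array was left in that group and the calls were of other genes or features. The segment differed there by 1.1 without AA pool 1 and by 1.08 without AA pool 2. Leaving out single arrays gave 0 to 1 calls for the difference between genotypes (1 without AA pool 2 of Il10-/- mice) and 2554 to 4895 for genotype on CO and OA (2554 without CO pool 2 of Il10-/- mice). With the pool number as a replicate block 0 genes were called in Il10-/- colon and the smallest limma adjusted p was 0.153. Of 2410 values of 92 genes under other settings, 2363 kept direction and side of the threshold, 3 moved past it and 44, in 21 genes, changed sign. The cause was not tested. With quantile normalization Clec4d gave -0.0173, Ffar4 -0.0931, Pdk4 0.129, Cyp4a10 0.037 and Ubd -0.147. With the doubtful OA array counted as EPA, Fpr2 gave 0.0287, Hpgd -0.0229, Ppara -0.154, Scd1 0.0753, Ifng 0.0059, Cxcl9 0.0109 and Ubd -0.0782. With single features Alox5 gave 0.128, Cyp4a10 0.0823 and Ifng 0.115, and with the shared value kept Fasn gave -0.0132. Leaving out single arrays gave ranges that include both signs for Alox5 (-0.0402 to 0.0312), Angptl4 (-0.316 to 0.0218), Ccl3 (-0.159 to 0.814), Clec4d (-0.0326 to 0.253), Cpt1a (-0.00174 to 0.444), Csf3r (-0.0198 to 0.0778), Cxcl9 (-0.636 to 0.238), Cyp4a10 (-0.118 to 0.0423), Fads1 (-0.103 to 0.165), Fads2 (-0.0555 to 0.241), Fpr2 (-0.319 to 0.129), Hpgd (-0.228 to 0.476), Ido1 (-0.709 to 0.294), Ifng (-0.298 to 0.294), Nos2 (-0.0354 to 0.555), Pdk4 (-0.123 to 0.0855), Ppara (-0.182 to 0.277), Scd1 (-0.383 to 0.0366) and Ubd (-0.0195 to 0.0273). With 2 pools a group and a median SE of 0.123, the unadjusted 95% interval of a single gene had a half-width of 0.269. Smaller differences could not be told from 0 at that SE even for 1 gene taken alone. A call over all genes needed 1.04 at that SE for the top gene, and no difference of any size was called under the main settings. No claim of equality is made for any gene.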
